A study of Homo sapiens with 6 samples.

Results

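The 34 genes described here carry glucose through glycolysis or respond to low oxygen. They were chosen by symbol, from a list of glucose transporters, glycolytic enzymes and hypoxia-responsive genes, and matched to the symbols of a merged table of read counts. All 34 were found among the 57992 gene identifiers of 6 RNA-seq libraries, and 33 of them were among the 23617 genes with enough reads for a test. The libraries came from HEK293T, a human embryonic kidney cell line that carries the SV40 large T antigen, grown in DMEM with 10% fetal bovine serum with no further treatment. 3 libraries (sh-control) were from cells expressing a hairpin of nonspecific sequence, and 3 (labelled sh-*RREB1*) from cells expressing a hairpin against *RREB1*, a zinc-finger transcription factor. Both hairpins came from a pLKO.1 lentiviral vector, and the lines were selected as stable with an antibiotic. Nothing in the sources used here says that replicates came from separate cultures, so p-values measure the spread between these libraries, which may be technical. The study used the comparison to ask which genes change when *RREB1* is knocked down.

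Glycolysis splits glucose into pyruvate in a chain of cytosolic reactions. Glucose enters through facilitative transporters, hexokinases trap it as a phosphate, and phosphofructokinase commits it to the pathway, after which lactate dehydrogenase can turn the resulting pyruvate into lactate. When oxygen is low, prolyl hydroxylases no longer mark HIF1A for degradation, and HIF1A with its partner ARNT binds the short core ACGTG or GCGTG near many of these genes and raises their transcription. HIF1A is controlled mostly at the level of its protein, which RNA-seq does not measure.

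The libraries differed in depth and in composition. Between 12257054 and 33044061 reads were counted on genes, and in sh-*RREB1* replicate 3, the shallowest, 52.1% of aligned reads fell at more than 1 position, against 3.66% to 7.63% in the other 5. *RREB1* itself was found at 27.1, 25.1 and 26.5 CPM (normalised reads per 1000000) across sh-control, against 23.7, 24.6 and 23.1 CPM for the hairpin. The groups did not overlap, but the log2 fold change was -0.14 with a 95% interval of -0.43 to 0.15, and it did not pass edgeR's quasi-likelihood test (adjusted p = 0.489). With each library's trend on GC content removed it was -0.36 (adjusted p = 0.0532 by edgeR). The study itself reported lower *RREB1* mRNA and protein in HEK293 cells with a hairpin against it, from assays apart from these libraries. Since the reduction was small in these counts, the hairpin libraries are named by their label throughout. Of 7 markers of HEK293 cells, all were detected in every library, with a summed level of 426 to 493 CPM in sh-control and 715 to 834 CPM in sh-*RREB1*. Most of this sum was *VIM*, at 329 to 359 CPM in sh-control and 529 to 615 CPM in sh-*RREB1*. *LHX1* was at 1.21 to 2.41 CPM over the 6 libraries, and *PAX2* did not exceed 0.475 CPM. The 10 markers of blood, liver, endothelial, fibroblast, heart and glial cells summed to between 1.995 and 5.80 CPM. Of these, the fibroblast marker *COL1A1* reached 2.63 CPM, and the T-cell marker *CD3E* was at 0 in all 6 libraries.

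Of the 33 members tested, 8 rose and 3 fell in the libraries labelled sh-*RREB1* at an adjusted p below 0.05 (edgeR's quasi-likelihood test, Benjamini-Hochberg over all genes), and 22 did not pass. Over all genes tested, 10.7% were higher and 8.7% lower by the same rule. The genes that rose were the glucose transporter *SLC2A1*, the hexokinase *HK1*, the chain enzymes *GPI*, *PFKL*, *PFKP* and *ALDOA*, the regulatory enzyme *PFKFB4* and the angiogenic factor *VEGFA*. The genes that fell were the lactate dehydrogenase subunit *LDHB*, the collagen prolyl hydroxylase *P4HA1* and the histone demethylase *KDM3A*. By the stricter rule of an adjusted p below 0.01 and a fold change above 2-fold (log2 above 1), 1 member was called, *GPI*, as higher, against 2.69% of all genes called higher and 0.69% called lower. All 3 libraries labelled sh-*RREB1* lay above all 3 sh-control libraries for 15 members and below them for 5, where 21% and 19.9% of all genes did so. The median log2 fold change of the members was 0.39, and that of all genes tested 0.01. These are bulk measurements, in which a change in the number of expressing cells and a change in RNA per cell cannot be told apart.

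**Figure D1:**
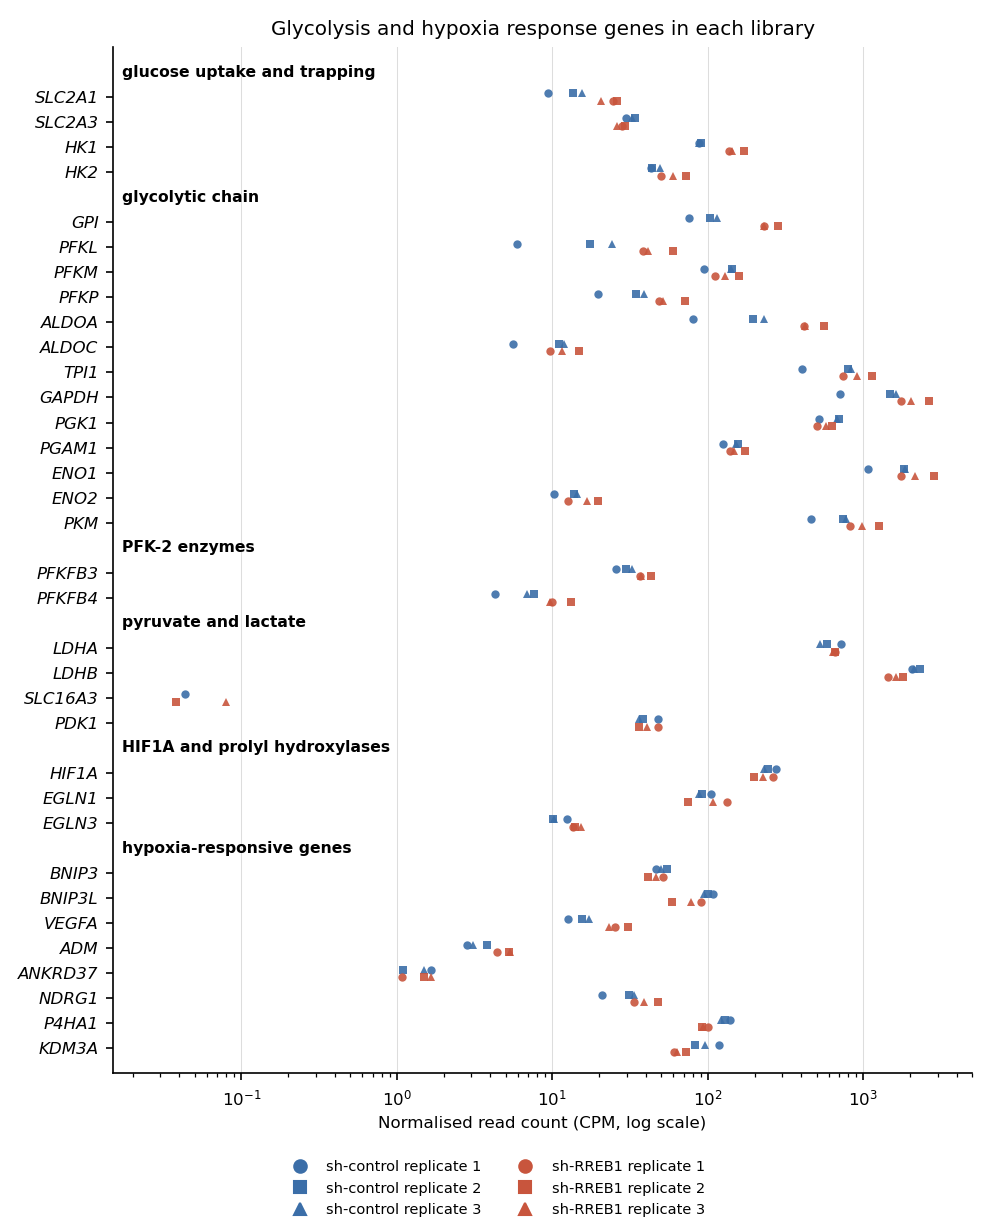
CPM of each of the 34 genes (log axis) in each library, sh-control in blue and labelled sh-*RREB1* in red, with a symbol for each replicate number and genes grouped by role. Points at 0 are not drawn. Sh-control replicate 1 (blue circle) is the lowest control for all 13 genes of the glycolytic chain, and the groups separate without overlap for *GPI* and *ALDOA* but not for *PGK1* or *PGAM1*.

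Exonic GC content and the level of sh-control replicate 1 moved with these differences, and they are given here because they touch nearly every gene below. Sh-control replicate 1 was the lowest of the 3 control libraries for 24 of the 33 tested members, including all 13 genes of the chain. The log2 fold change of the members followed the GC content of their exons (Spearman's rho 0.80 and Pearson's r 0.82 across 33 genes that share the same 6 libraries), as it did across 14333 expressed genes (rho 0.59). The deviation of sh-control replicate 1 from the mean of the other 2 controls followed GC content in the opposite direction (rho -0.78 across the members). That library is also part of every fold change, so these relations are not independent. Members were GC-rich, with a median of 53.6% against 46.7% for expressed genes. Of the 22 tested members above that 46.7%, 21 had a log2 fold change above 0 and all 8 genes that rose were among them. Of the 11 at or below it, 3 had one above 0, and all 3 genes that fell were among them. Each tested member was therefore given a second value, from the same test after each library's own trend with exonic GC content and length was removed ("GC-corrected"). By that test 6 members rose (*SLC2A1*, *HK1*, *GPI*, *PFKP*, *ALDOA* and the prolyl hydroxylase *EGLN3*) and 1 fell (*KDM3A*) at an adjusted p below 0.05, where 10.3% of all genes rose and 11.6% fell, and the stricter rule called 0 members, where it called 1.83% of all genes higher and 1.2% lower (13 members had an unadjusted p below 0.05 in this edgeR fit, 12 of them higher). With DESeq2 and no correction, *GPI*, *PFKL* and *ALDOA* were called higher (3 members, against 5.88% of all genes higher and 1.13% lower), and 10 members rose and 3 fell at 0.05 (12.5% and 10.1% of all genes). Without sh-control replicate 1, edgeR called the same 3 members (3.93% of genes higher, 0.939% lower), and 9 rose and 3 fell at 0.05 (11.7% and 10.2%). The members' median GC-corrected log2 fold change was 0.14, and that of all genes -0.03. In all, 6 members passed at 0.05 in both fits. A correction of this kind can remove a technical trend and also a true difference that follows GC content, and the part of either in these results was not tested.

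**Figure D2:**
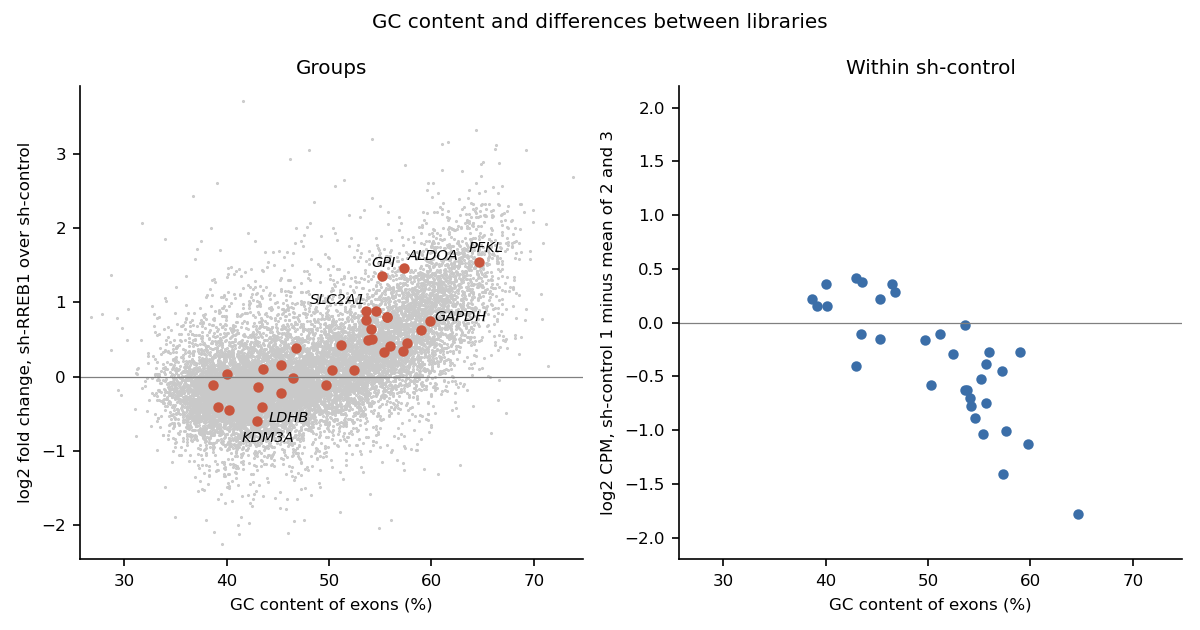
Left, log2 fold change of the 33 tested members (red) over all 14333 expressed genes (grey) against the GC content of their exons in percent. Right, log2 CPM of sh-control replicate 1 minus the mean of replicates 2 and 3 for the same 33 members. Points rise from left to right in the left panel (rho 0.80 for members) and fall in the right panel (rho -0.78), and *GPI* and *ALDOA* lie above most members of like GC content.

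By GC content in bands, the median uncorrected log2 fold change was -0.18 over the 10 members between 38% and 46% (from -0.60 for *KDM3A* to 0.15 for *EGLN1*) and 0.39 over the 9 between 46% and 54% (from -0.12 for *BNIP3* to 0.88 for *SLC2A1*). It was 0.64 over the 11 between 54% and 58% (from 0.33 for *ALDOC* to 1.47 for *ALDOA*) and 0.74 over the 3 between 58% and 66% (from 0.63 for *ADM* to 1.55 for *PFKL*). Differences between members of a band were not tested.

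The core to which HIF1A binds was looked for in the promoters of the members, as letters only. RefSeq promoter sequences (GRCh38.p14, 250 bases before to 50 bases after a gene's start) were found for 31 of the 34 genes, 58 promoters in all. The letters ACGTG or GCGTG, on either strand, were present in 39 of the 58 (67.2%) and in 48.4% of 35116 promoters of the same length. Among those with a GC content like the members', 63.9% held them. The median GC content of that set was still below the 68.8% of the members' promoters. ACGTG alone was present in 22 of the 58 (37.9%), in 21.4% of all promoters and in 26.7% of those with like GC content. Its share was 27.8% for promoters of members that rose and 25% for members that fell. These differences were not tested. A promoter with several copies was counted once, and CACGTG holds the core on both strands. Among promoters of the members that rose, 11 of 18 held the core (61.1%), and among those of the members that fell, 4 of 4. These counts are of promoters, and a gene can have several, as *HK1* did, with and without the core. Every gene that rose had a promoter with the core, except *VEGFA*, for which no promoter sequence was found. Every gene that fell had such a promoter too, and the promoters of *KDM3A* shared the same copy. So few promoters cannot settle whether genes that rose and genes that fell differ in this, and no test was run. The windows below show the copy nearest to the start in 9 promoters, chosen to place genes that rose beside genes that fell and genes that did not pass, since the same letters occur in all of them. Each is 25 bases, 5′ to 3′ on the strand of the gene, with the core or its reverse complement in capitals.
*SLC2A1* (rose), chr1:42958829-42958853, minus strand: gcaacagcgaGCGTGccggtcgcta
*GPI* (rose), chr19:34364820-34364844, plus strand: actgcctgtaACGTGgaaggtgttc
*PFKP* (rose), chr10:3069040-3069064, plus strand: acgagcgcctACGTGatgcccggcc
*ALDOA* (rose), chr16:30064376-30064400, plus strand: cagggaggccACGTGatccgagtcc
*GAPDH* (did not pass), chr12:6535174-6535198, plus strand: ctgcggggtcACGTGtcgcagagga
*LDHA* (did not pass), chr11:18394480-18394504, plus strand: tgggttcccgCACGTccgccggccc
*LDHB* (fell), chr12:21657801-21657825, minus strand: ggaggagacgCACGCagctgacttt
*P4HA1* (fell), chr10:73096938-73096962, minus strand: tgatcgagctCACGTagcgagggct
*KDM3A* (fell), chr2:86441335-86441359, plus strand: gggaggctgtGCGTGtcttgtgaga
A match of 5 letters is not a binding site, and binding was not measured in these libraries.

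Of the 4 genes that bring glucose into the cell and trap it, 2 rose and 2 did not pass. *SLC2A1* encodes GLUT1, the transporter that supplies glucose to most cells (chromosome 1 of GRCh38, 42925353 to 42958893). Its level was 9.37, 13.7 and 15.4 CPM across sh-control and 24.5, 26.0 and 20.5 CPM across sh-*RREB1*. Every hairpin library was above every control, by 1.84-fold on average (log2 fold change 0.88, SE 0.21, adjusted p = 0.0207 by edgeR). The GC-corrected log2 fold change was 0.59 (adjusted p = 0.00559 by edgeR), and the gene passed in 2 of 6 uncorrected and 6 of 6 corrected fits that left out a library. *SLC2A3*, which encodes the high-affinity transporter GLUT3, measured 29.9, 34.05 and 32.7 CPM across sh-control and 27.9, 29.2 and 25.9 CPM across sh-*RREB1*. All 3 hairpin libraries were below the controls, but the log2 fold change of -0.22 did not pass (adjusted p = 0.276 by edgeR; -0.12 after correction).

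*HK1*, the widely expressed hexokinase (chromosome 10, 69269984 to 69401884), had the tightest controls of the group. Its level was 87.7, 91.0 and 87.8 CPM across sh-control and 137, 172 and 143 CPM across sh-*RREB1*. Sh-control replicate 1 did not stand apart for this gene, and the groups were far from overlapping. The log2 fold change was 0.76 (SE 0.12, adjusted p = 0.00519 by edgeR) and 0.42 after GC correction (adjusted p = 0.0146 by edgeR). *HK1* passed at 0.05 in all 6 uncorrected fits that left out 1 library and in 3 of the 6 corrected ones. *HK2*, the inducible hexokinase, measured 43.2, 43.9 and 49.4 CPM across sh-control and 50.3, 72.3 and 60.1 CPM across sh-*RREB1*. Its groups did not overlap, but its log2 fold change of 0.42 did not pass (adjusted p = 0.0867 by edgeR; 0.28 after correction).

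Of the 13 genes of the glycolytic chain, from glucose phosphate isomerase to pyruvate kinase, 4 rose and 9 did not pass in the main edgeR fit. That fit has the group as single term. None was lower even at an unadjusted p below 0.05 or with DESeq2. Their median log2 fold change was 0.51 uncorrected and 0.04 after GC correction. Their reads together made up 0.354%, 0.594% and 0.632% of the reads on genes in sh-control and 0.692%, 0.987% and 0.793% in sh-*RREB1*. The lowest hairpin library was thus close to the highest controls, and sh-control replicate 1 was lowest of all.

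*GPI* turns glucose 6-phosphate into fructose 6-phosphate (chromosome 19, 34359480 to 34402413). Its level was 75.3, 103 and 114 CPM across sh-control and 231, 284 and 231 CPM across sh-*RREB1*. The lowest hairpin library was above the highest control, and the spread within either group was small beside the gap. *GPI* rose 2.55-fold (log2 fold change 1.35, SE 0.17, adjusted p = 0.00316 by edgeR), and by a log2 of 0.89 after GC correction (adjusted p = 3.96e-05 by edgeR). The stricter rule called it in 2 of the 6 uncorrected fits that left out a library, and not after correction with all 6 libraries, where its fold change was below 2-fold.

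*ALDOA*, the main aldolase, which splits fructose 1,6-bisphosphate (chromosome 16, 30064164 to 30070457), measured 79.9, 194 and 231 CPM across sh-control and 417, 556 and 421 CPM across sh-*RREB1*. The controls themselves spread widely, with replicate 1 lowest, yet all lay below the hairpin libraries. It rose 2.76-fold (log2 fold change 1.47, SE 0.33, adjusted p = 0.0181 by edgeR), by a log2 of 1.09 without sh-control replicate 1, and by 0.93 after GC correction (adjusted p = 0.00168 by edgeR). It passed at 0.05 in 3 of the 6 uncorrected fits that left out a library and in all 6 corrected ones. The brain-type aldolase *ALDOC* measured 5.60, 11.1 and 11.9 CPM across sh-control and 9.64, 14.8 and 11.6 CPM across sh-*RREB1*. Its groups overlapped, and its log2 fold change of 0.33 did not pass (adjusted p = 0.473 by edgeR) and turned to -0.06 after correction.

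The 3 phosphofructokinase genes encode the subunits of the committing step, named for liver, muscle and platelet. *PFKL* (chromosome 21, 44300051 to 44327376) measured 5.94, 17.5 and 24.1 CPM across sh-control and 38.04, 60.0 and 41.2 CPM across sh-*RREB1*. Its controls varied more than those of any other tested member relative to replicate 1, which was lower than the mean of the other 2 by a log2 of 1.78, and its GC content of 64.6% was the highest among tested members. It rose 2.92-fold (log2 fold change 1.55, SE 0.42, adjusted p = 0.0344 by edgeR) but did not pass after GC correction (log2 fold change 0.23, adjusted p = 0.310 by edgeR). *PFKP* measured 19.8, 34.3 and 38.9 CPM across sh-control and 48.8, 70.95 and 51.2 CPM across sh-*RREB1*, with no overlap. It rose by a log2 of 0.88 (adjusted p = 0.0409 by edgeR) and, after GC correction, by 0.49 (adjusted p = 0.0134 by edgeR). *PFKM* measured 94.5, 142 and 140.2 CPM across sh-control and 111, 159 and 129 CPM across sh-*RREB1*. Its groups overlapped, with a log2 fold change of 0.08 (adjusted p = 0.804 by edgeR; 95% interval -0.34 to 0.50) that was -0.0089 after correction.

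The later steps of the chain, from triose phosphate to pyruvate, held abundant enzymes, and none of them passed in the main edgeR fit. *PKM* did by DESeq2 (adjusted p = 0.0417). With the replicate number as a block in edgeR, *PKM* (adjusted p = 0.00311), *GAPDH* (0.00491), *ENO1* (0.00755) and *TPI1* (0.0185) passed at 0.05. *PGK1*, *PGAM1* and *ENO2* did not. Whether the replicate numbers pair the libraries is not known. *GAPDH*, which oxidises glyceraldehyde 3-phosphate and is often used as a reference gene, measured 708, 1491 and 1619.7 CPM across sh-control and 1753, 2629 and 2013 CPM across sh-*RREB1*. The hairpin libraries were all above the controls, but the log2 fold change of 0.74 did not pass (adjusted p = 0.1004 by edgeR) and was -0.04 after GC correction. *PKM*, pyruvate kinase, measured 464, 736 and 772 CPM across sh-control and 822, 1268 and 979 CPM across sh-*RREB1*. It did not overlap between groups either, with a log2 fold change of 0.64 (adjusted p = 0.0697 by edgeR) and of 0.28 after correction.

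*ENO1*, the main enolase, measured 1077, 1819 and 1868 CPM across sh-control and 1752, 2848 and 2163 CPM across sh-*RREB1*, and triose phosphate isomerase (*TPI1*) measured 406, 794 and 835 against 739, 1144 and 909.7 CPM. Both overlapped between groups, with log2 fold changes of 0.51 and 0.46. The X-linked phosphoglycerate kinase *PGK1* measured 519, 695 and 676 CPM across sh-control and 503, 629 and 577 CPM across sh-*RREB1*, with a log2 fold change of -0.15. Phosphoglycerate mutase (*PGAM1*) had a log2 fold change of 0.09 and the neuronal enolase *ENO2* one of 0.35. Adjusted p-values of these 5 genes by edgeR ran from 0.164 for *ENO1* to 0.669 for *PGAM1*, and their corrected log2 fold changes from -0.27 for *ENO2* to 0.17 for *ENO1*. Correction turned the sign of *ENO2*, *TPI1* (-0.13), *PGAM1* (-0.08) and *PGK1* (0.04).

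**Figure D3:**
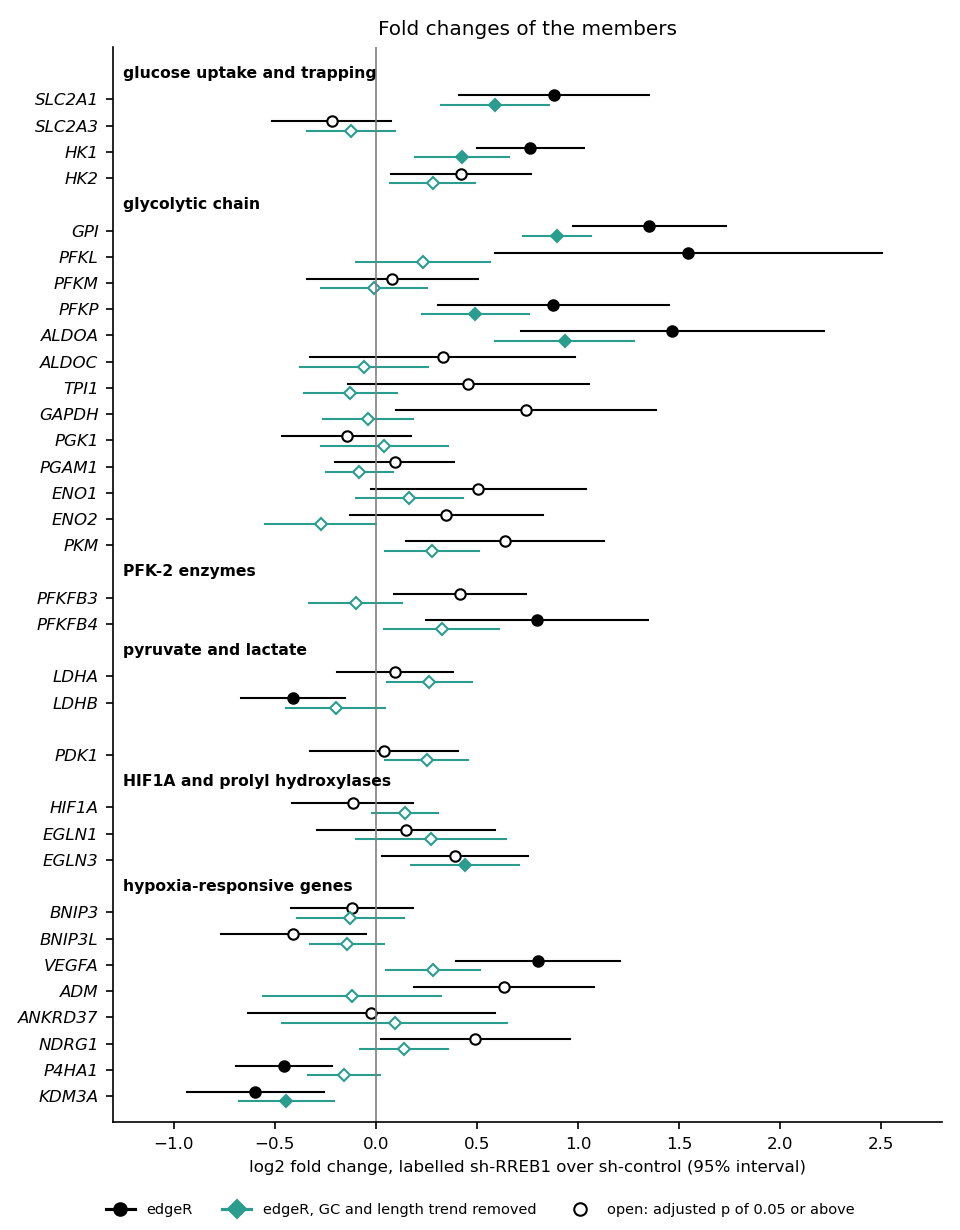
Log2 fold change with its 95% interval for each of the 33 tested members, from edgeR (black circles) and from edgeR with the trend on GC content and exon length removed (green diamonds). Filled symbols mark an adjusted p below 0.05. The intervals of *SLC2A1*, *HK1*, *HK2*, *GPI*, *PFKP*, *ALDOA*, *PKM*, *PFKFB4*, *VEGFA* and *EGLN3* lie above 0 in both fits. Of these, *SLC2A1*, *HK1*, *GPI*, *PFKP* and *ALDOA* are filled in both. The interval of *KDM3A* lies below 0 and is filled in both, while those of *PFKL* and *GAPDH* span 0 after correction.

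PFKFB enzymes make fructose 2,6-bisphosphate, the activator of phosphofructokinase. *PFKFB4* measured 4.29, 7.60 and 6.91 CPM across sh-control and 9.92, 13.1 and 9.65 CPM across sh-*RREB1*, and *PFKFB3* measured 25.8, 29.6 and 32.8 against 36.8, 43.4 and 37.3 CPM. Neither overlapped between groups. *PFKFB4* rose by a log2 of 0.80, just past the threshold (adjusted p = 0.0496 by edgeR), and did not pass after GC correction (0.33, adjusted p = 0.0986). *PFKFB3* had a log2 fold change of 0.41 (adjusted p = 0.0769 by edgeR) and of -0.10 after correction.

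At the end of the pathway, lactate dehydrogenase is built from an A subunit (*LDHA*), associated with lactate production, and a B subunit (*LDHB*). *LDHB* (chromosome 12, 21635342 to 21757857) measured 2059.5, 2319 and 2117 CPM across sh-control and 1449.9, 1810.4 and 1629 CPM across sh-*RREB1*. Every hairpin library was below every control. *LDHB* fell by 0.41 on the log2 scale (SE 0.11, adjusted p = 0.0369 by edgeR) and did not pass after GC correction (-0.20, adjusted p = 0.242 by edgeR). *LDHA* measured 719, 583 and 526 CPM across sh-control and 655, 662 and 637 CPM across sh-*RREB1*. Its controls spread around its hairpin libraries, and the log2 fold change of 0.10 did not pass (adjusted p = 0.648 by edgeR; corrected 0.26, adjusted p = 0.0730).

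*PDK1*, a kinase that inhibits pyruvate dehydrogenase, measured 47.5, 38.2 and 36.1 CPM across sh-control and 48.2, 36.0 and 40.9 CPM across sh-*RREB1*. Its groups overlapped, with a log2 fold change of 0.04 (adjusted p = 0.895 by edgeR) that was 0.25 after correction. The lactate exporter *SLC16A3* received 1, 0 and 0 reads across sh-control and 0, 1 and 1 across sh-*RREB1*, too few for a test or a fold change. Between 93.3% and 100% of the reads at its locus lay on the opposite strand in each of the 6 libraries.

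Shares of isoforms within a library do not depend on the scaling between libraries, so they were compared for 11 genes of 9 families, per kilobase of exon. The length used covers all annotated exons of a gene, so the size of a share depends on the annotation. The groups did not overlap for 9 of the 11 shares, 3 higher and 6 lower. Of single genes, 21% and 19.9% were above and below without overlap, but shares of other gene families were not computed, so 9 of 11 is given as a count only. Each of these had an exact two-sided permutation p = 0.1, the smallest that 3 against 3 libraries can give, and 0.122 after Benjamini-Hochberg adjustment over the 11, so none could pass. *SLC2A3* made up 74.4%, 69.4% and 65.9% of the GLUT1 and GLUT3 transcripts in sh-control and 51.0%, 50.6% and 53.5% in sh-*RREB1*. Even the lowest control was more than 12 percentage points above the highest hairpin library. *PFKM* made up 80.2%, 75.5% and 71.5% of phosphofructokinase in sh-control and 59.2%, 58.01% and 61.4% in sh-*RREB1*, with *PFKL* and *PFKP* taking larger shares. These 3 shares add to a whole and are not independent. Shares are free of scaling but not of a library's trend with GC content, and no GC-corrected share was computed. Exonic GC content was 64.6% for *PFKL*, 54.6% for *PFKP* and 50.3% for *PFKM*, and 53.6% for *SLC2A1* against 45.3% for *SLC2A3*. The part of GC content in these shifts was not tested.

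*ALDOC* made up 9.32%, 7.72% and 7.02% of the 2 aldolases in sh-control and 3.28%, 3.75% and 3.87% in sh-*RREB1*. *LDHB* made up 85.3%, 88.9% and 89.0% of lactate dehydrogenase in sh-control and 81.7%, 84.7% and 83.8% in sh-*RREB1*. By reads without division by length, it made up 74.1%, 79.9% and 80.1% against 68.9%, 73.2% and 71.9%. *LDHA* and *LDHB* have nearly the same GC content, 43.6% and 43.5%, and the *LDHB* shares of the groups were separated by less than 1 percentage point. *HK2* and *BNIP3L* had lower shares of their pairs in every hairpin library and *PFKFB4* a higher one, while *ENO2* and *EGLN3* overlapped.

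**Figure D4:**
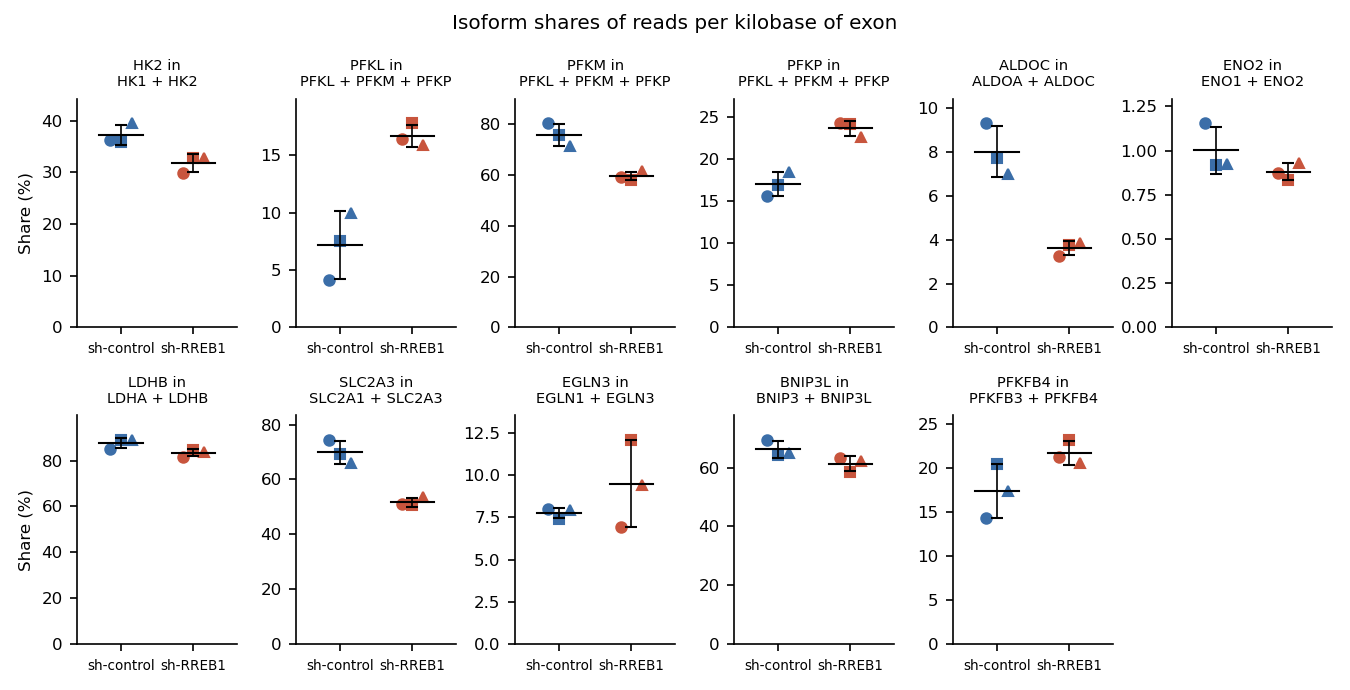
Share (%) of 1 isoform in the reads per kilobase of its family in each library, sh-control in blue and labelled sh-*RREB1* in red, with a symbol for each replicate number and lines for the mean ± SD (n = 3). All axes start at 0. Groups overlap for *ENO2* and *EGLN3* and are separate for the other 9 shares, most widely for *SLC2A3* and *PFKM*.

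By level per kilobase of exon, which allows genes to be compared, *LDHB* was first of the 34 in sh-control (726 ± 45.7 CPM per kilobase, SD, n = 3), followed by *GAPDH* (531 ± 206), *ENO1* (304 ± 84.9) and *TPI1* (251 ± 87.8). The range of mean ± SD of each of these overlapped that of the next. In the libraries labelled sh-*RREB1*, *GAPDH* came first (889.7 ± 188) and *LDHB* next (546 ± 60.4). *ALDOA* moved from place 10 (43.9 ± 20.6) to place 5 (121 ± 20.7), *GPI* from 17 to 12 and *PFKL* from 28 to 21. At the low end, *PFKFB4* and *ANKRD37* held places 32 and 33 in both groups, and *SLC16A3* place 34.

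None of HIF1A and its prolyl hydroxylases passed in the uncorrected test by edgeR or DESeq2, and 1 (*EGLN3*) had an unadjusted p below 0.05. *HIF1A* measured 274, 242 and 229 CPM across sh-control and 264, 197 and 227 CPM across sh-*RREB1*. The groups overlapped, and the log2 fold change was -0.12 (adjusted p = 0.590 by edgeR; 95% interval -0.41 to 0.18) and turned to 0.14 after correction. *EGLN1*, the main oxygen sensor of the family, was at 104, 92.0 and 87.7 CPM against 133, 74.6 and 108 CPM, and also overlapped (log2 fold change 0.15, adjusted p = 0.639 by edgeR; 0.27 after correction). *EGLN3*, which is itself induced by HIF, measured 12.4, 10.1 and 10.3 CPM across sh-control and 13.6, 14.1 and 15.3 CPM across sh-*RREB1*, without overlap. Its log2 fold change was 0.39 (adjusted p = 0.121 by edgeR), and with GC correction it rose by 0.44 (adjusted p = 0.0232 by edgeR), which held in 2 of 6 corrected fits that left out a library.

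Among the 8 hypoxia-responsive genes outside glycolysis, 1 rose, 2 fell and 5 did not pass, and their median log2 fold change was -0.07. *VEGFA*, the vascular growth factor (chromosome 6, 43770184 to 43786487), measured 12.5, 15.5 and 17.3 CPM across sh-control and 25.3, 30.6 and 23.0 CPM across sh-*RREB1*. It rose 1.74-fold without overlap (log2 fold change 0.80, SE 0.18, adjusted p = 0.0173 by edgeR) and did not pass after GC correction (0.28, adjusted p = 0.0791 by edgeR).

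*P4HA1*, a prolyl hydroxylase of collagen (chromosome 10, 73007217 to 73096974), measured 139.5, 129.7 and 121 CPM across sh-control and 99.8, 91.8 and 93.0 CPM across sh-*RREB1*. Both groups were tight and did not overlap. It fell by 0.46 on the log2 scale (SE 0.11, adjusted p = 0.0194 by edgeR), and its corrected value of -0.16 did not pass (adjusted p = 0.195 by edgeR). *KDM3A*, a demethylase of histone H3 lysine 9 (chromosome 2, 86440647 to 86492716), measured 119, 83.2 and 95.6 CPM across sh-control and 61.1, 72.4 and 63.1 CPM across sh-*RREB1*. All hairpin libraries were below all controls. It fell by 0.60 on the log2 scale (SE 0.15, adjusted p = 0.0255 by edgeR) and by 0.44 after GC correction (adjusted p = 0.0125 by edgeR), and passed in 4 of 6 fits that left out a library, with or without correction.

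The other 5 genes of this group went in both directions. The vasodilator peptide gene *ADM* measured 2.82, 3.78 and 3.08 CPM across sh-control and 4.42, 5.27 and 5.38 CPM across sh-*RREB1* (log2 fold change 0.63, adjusted p = 0.0535 by edgeR), but its corrected log2 fold change was -0.12. *NDRG1*, a stress-responsive gene, was at 20.9, 31.3 and 33.3 CPM against 33.5, 47.6 and 39.0 CPM (0.49, adjusted p = 0.129 by edgeR, and 0.14 after correction). *BNIP3L*, a mitophagy receptor, was at 108, 99.9 and 94.3 CPM against 90.4, 59.0 and 78.2 CPM (-0.41, adjusted p = 0.104 by edgeR, and -0.14 after correction). These 3 did not overlap between groups.

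Its relative *BNIP3* overlapped, at 46.4, 54.2 and 49.8 CPM against 51.4, 41.0 and 46.1 CPM (-0.12, adjusted p = 0.583 by edgeR, and -0.13 after correction). *ANKRD37*, a small ankyrin-repeat gene, was at 1.65, 1.10 and 1.49 CPM against 1.08, 1.49 and 1.66 CPM (-0.02, adjusted p = 0.965 by edgeR, and 0.09 after correction). Of the reads at *ANKRD37*, 71.2% to 83.0% lay on the opposite strand and were not counted here. Reads on annotated pseudogenes made up at most 2.25% of the reads of any member and its pseudogenes together, the highest for *SLC2A3*.

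The 83 other genes of these pathways were read in the same fit, and of the 74 tested 16 rose, 7 fell and 51 did not pass at 0.05. Over all genes tested, 10.7% were higher and 8.7% lower. After GC correction 16 of the 74 rose and 10 fell, where 10.3% of all genes rose and 11.6% fell. The median uncorrected log2 fold change of the 74 was close to 0 (7.44e-05). Of 26 other glycolysis genes tested, 2 rose and 6 fell (1 and 6 after correction), with a median of -0.22. The stricter rule called the germ-cell lactate dehydrogenase *LDHC* and the pyruvate dehydrogenase kinase *PDK4* as lower, against 0.69% of all genes. *LDHC* measured 14.3, 12.8 and 11.8 CPM across sh-control and 5.22, 5.04 and 6.25 CPM across sh-*RREB1* (log2 fold change -1.24, adjusted p = 0.00413 by edgeR; -0.93 after correction, which is below 2-fold and ends the call). *PDK4* was at 9.15, 7.38 and 7.71 CPM against 1.49, 1.99 and 3.09 CPM (-1.93, adjusted p = 0.00393 by edgeR; -1.68 after correction). Neither overlapped between groups, whereas the member *PDK1*, which acts on the same enzyme as *PDK4*, did.

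Of 28 other hypoxia-responsive genes tested, 7 rose and 1 fell (9 and 3 after GC correction). Of the 28, 3 were called as higher, against 2.69% of all genes. The carbonic anhydrase *CA12* measured 4.73, 4.85 and 4.82 CPM across sh-control and 12.5, 16.3 and 11.6 CPM across sh-*RREB1*, with a log2 fold change of 1.49 (adjusted p = 0.00320 by edgeR) and of 1.46 after correction. The mTOR inhibitor *DDIT4* was at 11.5, 18.2 and 20.3 CPM against 34.3, 47.9 and 40.4 CPM (1.30, adjusted p = 0.00770 by edgeR; 0.60 after correction, which ends the call). *MIF*, a cytokine gene with a GC content of 69.0%, had 0, 11 and 23 reads against 163, 88 and 37, and its log2 fold change of 3.43 (adjusted p = 0.00914 by edgeR) was 1.79 with both strands counted (adjusted p = 0.145 by edgeR) and 1.77 after correction (adjusted p = 0.0167), each of which ends the call.

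Of 13 other components of the HIF pathway tested, 3 rose and none fell by edgeR without correction. At an unadjusted p below 0.05, 2 were lower in that fit, and with DESeq2 1 passed as lower. After GC correction, 3 rose and 1 fell at an adjusted p below 0.05 by edgeR. Of 7 genes of the pentose phosphate pathway, which branches from glycolysis after hexokinase, 4 rose and 3 did not pass. After GC correction 3 rose. The median log2 fold change of the 7 was 0.66, and 0.28 after GC correction.

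**Figure D5:**
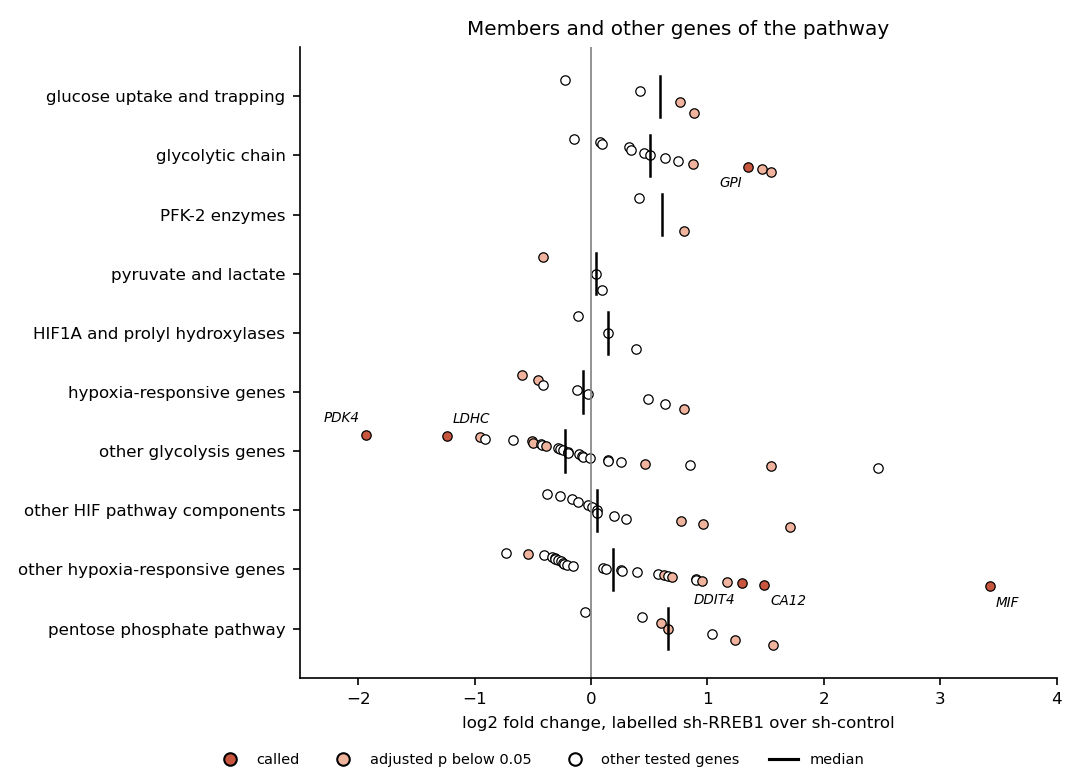
Log2 fold change of every tested member (top 6 lists) and of 74 other genes of the pathways (bottom 4 lists), with list medians as vertical lines. Dark red points were called, light red points had an adjusted p below 0.05, and white points did not pass. *GPI* is the only called member, and the medians run from -0.22 (other glycolysis genes) to 0.66 (pentose phosphate pathway).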

How the data were processed

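HEK293T libraries were made from total RNA with a strand-specific kit, per the labels. The authors aligned reads to hg38 with STAR 2.4.2a and Gencode 25 and deposited raw read counts per gene, unnormalised, for both strands together and for each strand, plus a merged table. All 24635 identifiers of the merged table equalled the column counted on the gene's own strand, and that column was used. 0 columns of per-sample values were left unused. Summary lines (between 8853232 and 13201426 reads on no gene per library) stayed out of library sizes.

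Of 58037 identifiers, 45 pseudoautosomal duplicates were dropped, and genes with fewer than 10 reads over the 6 libraries were left out. *SLC16A3* was the member removed by this. The quasi-likelihood test of edgeR 4.0.16 (R 4.3.3) was run on these counts with TMM scaling and the group as single term, and p-values were adjusted over 23617 genes by the Benjamini-Hochberg method. The authors' thresholds (adjusted p below 0.01 and absolute log2 fold change above 1) defined a call. The CPM values use the TMM scaling. GC content and exonic length came from Gencode 44 and were available for 98.7% of tested genes. For the GC-corrected fit, natural splines (5 degrees of freedom) were fitted to each library's counts on both properties, using genes whose mean log2 CPM exceeded 0, and the fitted trend entered the model as an offset. Gene coordinates are from the same annotation. The scripts were tested on simulated data.

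Replicates were compared before averaging. The closest pair, sh-control replicates 2 and 3, had a chi-square of 5.13 per degree of freedom, above sampling noise, so all 6 were kept as separate. The numbers of replicates that the labels share were not used to pair libraries. Alternatives were DESeq2 1.42.0, other scalings, other filters on low counts, both strands, the merged table, the replicate number as a block, the GC correction, and each library left out. Named genes were all members, *RREB1*, and the called genes of the other lists. Members and lists were chosen with earlier results of these data known. Some single genes of the other lists are not reported here.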

Additional observations from a re-analysis of the deposited data

Results flagged for a closer look

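At *HK2*, the reads on the strand opposite to the gene, which no comparison above uses, were more frequent with the *RREB1* hairpin than with sh-control. They numbered 0, 2 and 8 in sh-control and 30, 25 and 18 in sh-*RREB1*, or 0, 0.0703 and 0.242 per 1000000 reads on genes against 1.27, 0.956 and 1.47. The lowest hairpin library, at 0.956, was thus above the highest control, with more than 3 reads in each hairpin library and over 2 times the control's level. This comparison was chosen after the data had been seen. Of the 18 members with enough such reads, 1 met it, and of 5783 gene identifiers of any kind 220 did (3.8%). The reads are few, and their source was not tested.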

How the results depend on the processing

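The count of all genes called, 798, became 1656 with DESeq2, 1829 with a minimum of 1 read and between 8 and 1120 with 1 library left out (457 to 713 with GC correction as well, for example 507 when control replicate 2 and 498 when hairpin replicate 1 was left out). It was lowest without hairpin replicate 3 (8), control replicate 2 (9) and hairpin replicate 1 (25), then 136 without hairpin replicate 2 and 380 without control replicate 3. The 1 member called became 3 with DESeq2 or a minimum of 1 read (*GPI*, *PFKL* and *ALDOA*), 0 with GC correction, and 0 to 3 with a library left out (0 to 1 with correction). The 11 members past 0.05 became 7 with GC correction and 3 to 12 with a library left out (4 to 11 with correction), the 3 being without sh-control replicate 2 or sh-*RREB1* replicate 3. Without sh-*RREB1* replicate 1 or 2 there were 6. Of the 11, *HK1* and *GPI* passed in all 6 such uncorrected fits, *VEGFA* in 5, *P4HA1* and *KDM3A* in 4, *ALDOA* in 3, *SLC2A1*, *PFKL*, *PFKP* and *LDHB* in 2, and *PFKFB4* in 1. The members' median of 0.39 became 0.14 with GC correction, 0.20 without sh-control replicate 1 and 0.20 to 0.47 over all libraries left out (0.063 to 0.15 with correction, where the lowest were 0.063 without control replicate 1, 0.082 without hairpin replicate 2 and 0.12 without hairpin replicate 3). The 5 other pathway genes called became 9 with a minimum of 1 read, 3 with GC correction, and 0 to 7 with a library left out (2 to 4 with correction). They were 0 when control replicate 2, hairpin replicate 1 or hairpin replicate 3 was left out, and 1 when hairpin replicate 2 was. Non-overlapping isoform shares were 9 to 10. *RREB1* met the stricter rule in no alternative, from -0.20 to -0.12 with a library left out and from -0.44 to -0.27 with correction too. It passed 0.05 with correction when hairpin replicate 1 was left out (adjusted p = 0.0475 by edgeR) and in the replicate block with correction (0.0106). The causes were not tested. GC correction turned the sign of 11 of the 33 members, none of them past 0.05 in either fit.

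With the replicate number as a block, the number of all genes called was 1707, that of members 3 and that of other pathway genes 9, and 20 members passed 0.05. With the replicate block and GC correction together, 0 members were called, and the median was 0.14. Deviations of same-numbered libraries from their group means correlated at 0.50, 0.43 and -0.28, and 3 of 6 libraries correlated best with their own number. Deviations within a group of 3 are not independent, so these values cannot settle whether the numbers pair the libraries. With 3 libraries per group, the 95% interval of *PFKL* ran from 0.59 to 2.50, which limits what can be said of its size.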
